A study of Homo sapiens with 9 samples.

Results

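The comparison set 3 RNA-seq libraries of 22Rv1 cells carrying hairpin 1 against CHD9 (shCHD9_1) beside 3 libraries of 22Rv1 cells carrying hairpin 2 against the same gene (shCHD9_2). These are 6 of the 9 libraries of a series on RNA methylation editing with METTL3. All genes that passed a low-count filter in the 6 libraries entered, which was 16532 of the 67071 gene identifiers in the count table. The other 3 libraries carry a hairpin against GFP (shGFP), and their levels are given beside the hairpin levels as the background measured the same way. The 22Rv1 line is a human prostate carcinoma line that responds to androgen. Per the labels, the shGFP cells are wild type and the others carry a CHD9 knockdown made with shRNA No.1 or No.2, and all 9 libraries come from the same line grown in the same medium with serum. The labels do not say whether the cells of a group were a clone or a pool, when RNA was taken after the hairpins were introduced, or whether the replicates were separate cultures. The p-values therefore cover the spread among these libraries and no more, and part or all of that spread may be technical.

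CHD9 is a member of the chromodomain helicase family, enzymes that use ATP to move or restructure nucleosomes. A short hairpin RNA is processed by Dicer into a small interfering RNA, which guides an Argonaute protein to transcripts that pair with it. Hairpins against different stretches of a transcript share the intended target. Each can also pair in part with other transcripts, mainly through the bases at the start of its guide strand. The hairpin sequences were not used here.

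Total counts ran from 20572689 to 31968602 in the 6 libraries. The common coefficient of variation of replicates in edgeR, which leaves out counting noise, was 2.79%. Chi-square per degree of freedom over genes was 1.72 to 1.85 between libraries of hairpin 1, 2.25 to 2.86 between libraries of hairpin 2, and 9.68 to 13.2 between a library of either. The first principal component of log2 CPM, a gene's reads scaled to the total of its library, held 37.7% of the variance of the 6 libraries. On it hairpin 1 libraries lay between -19.2 and -16.0 and hairpin 2 libraries between 15.9 and 19.7. The 8 luminal prostate markers summed to 2139 to 2165 CPM with hairpin 1, 2018 to 2042 CPM with hairpin 2 and 1861 to 1896 CPM in shGFP, with none at 0. The basal marker KRT5, the neuroendocrine marker CHGA, the endothelial marker CDH5, HBB of red cells and CD3E of T cells were at 0 in all 9 libraries.

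CHD9 itself (ENSG00000177200.17, chr16:53055033-53329150, plus strand, GENCODE 29 on GRCh38) was lower with hairpin 1 than with hairpin 2. Its level was 14.7, 16.6 and 14.9 CPM with hairpin 1 and 18.3, 18.8 and 19.3 CPM with hairpin 2, against 22.8, 20.6 and 23.2 CPM in shGFP. The 3 groups did not overlap. Each CHD9 value rests on 298 to 610 counts, and the exact Poisson 95% interval of a single library, which covers counting error only, was for example 13.1 to 16.5 CPM in hairpin 1 replicate 1. The log2 difference, hairpin 1 minus hairpin 2, was -0.29 (SE 0.08, n = 3 per hairpin, edgeR adjusted p = 0.00277). With each library corrected for its trend with GC content and exonic length, the difference was -0.17 (edgeR adjusted p = 0.0827) and was no longer called.

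Of the 10 CHD genes tested, CHD4 and CHD5 were called higher with hairpin 1, and CHD1 and CHD9 higher with hairpin 2. CHD4, the helicase of the NuRD complex, was at 17.3, 16.1 and 15.3 CPM with hairpin 1 and 13.1, 13.1 and 13.5 CPM with hairpin 2 (log2 difference 0.29, SE 0.08, edgeR adjusted p = 0.00394). CHD1, a remodeller of active genes, was at 40.6, 42.8 and 41.6 CPM against 50.6, 50.2 and 46.5 CPM (log2 difference -0.24, SE 0.05, edgeR adjusted p = 9.86e-05), and shGFP was higher than either, at 61.6 to 66.0 CPM. The groups did not overlap for these genes. After the GC content and length correction only CHD4 was called among the 10 (0.23, edgeR adjusted p = 0.027). CHD5 was not called without hairpin 1 replicate 3 either (0.16). Over all genes tested 29.9% were called. The genes on either side of CHD9 on chromosome 16 gave 5 calls among 18 tested, no larger a share. Of these, 2 were higher with hairpin 1 and 3 higher with hairpin 2. They included NUDT21, a subunit of the cleavage factor that selects polyadenylation sites, at 153 to 159 CPM with hairpin 1 and 219 to 224 CPM with hairpin 2 (log2 difference -0.50, SE 0.03, edgeR adjusted p = 1.95e-19).

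Across all genes the hairpins differed at many transcripts by small amounts. A call means an edgeR quasi-likelihood p that stays under 0.05 after Benjamini-Hochberg adjustment over all genes. The test called 4935 of the 16532 genes, 29.9% (percent called), of which 2632 were higher with hairpin 1 (15.9%) and 2303 higher with hairpin 2 (13.9%). The median size of a called log2 difference was 0.22. Calls over 1.5-fold numbered 424 (2.56%), 192 higher with hairpin 1 (1.16%) and 232 higher with hairpin 2 (1.4%). Calls over 2-fold numbered 113 (0.684%), 49 higher with hairpin 1 and 64 higher with hairpin 2. The 3 libraries of either hairpin did not overlap for 6622 genes (40.1%), and 4621 genes (28%) were also called. No gene was at 0 counts in all libraries of a hairpin and at 10 or more counts in each library of the other.

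**Figure D1:**
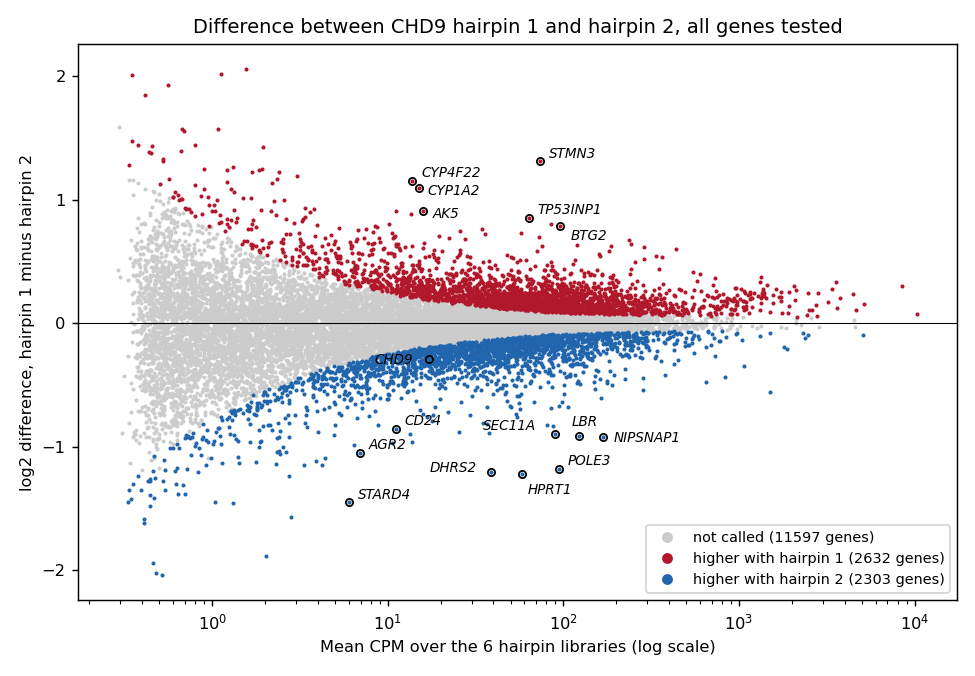
Each point is a gene, with its mean CPM over the 6 hairpin libraries on a log axis and its log2 difference, hairpin 1 minus hairpin 2, on the vertical axis; red and blue points are called and grey points are not. Most called genes lie close to 0, while STMN3 at 1.31 and HPRT1 at -1.22 stand far from the bulk at their abundance.

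Among the genes farthest below 0, at 5 CPM or more and without overlap, several had hairpin 2 at the level of shGFP. HPRT1, the purine salvage enzyme (chrX:134460153-134520513, plus strand), was at 32.5, 36.7 and 35.8 CPM with hairpin 1 and 83.5, 82.8 and 78.5 CPM with hairpin 2, a log2 difference of -1.22 (SE 0.05, edgeR adjusted p = 1.51e-26). The shGFP libraries were at 81.8, 79.5 and 84.5 CPM, within the range of hairpin 2 apart from the highest. POLE3, a histone-fold subunit of DNA polymerase epsilon and of the CHRAC remodelling complex (chr9:113407235-113410672, minus strand), was at 57.9, 55.9 and 59.0 CPM against 132, 129 and 130 CPM, a log2 difference of -1.18 (SE 0.04, edgeR adjusted p = 6.89e-30). Its shGFP libraries, at 125 to 141 CPM, spanned those of hairpin 2.

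A similar arrangement, with hairpin 1 low and the libraries of hairpin 2 and shGFP overlapping or close, was seen in other genes of this group. NIPSNAP1, a mitochondrial matrix protein (chr22:29554808-29581337), was at 123, 115 and 111 CPM with hairpin 1, 223, 215 and 221 CPM with hairpin 2 and 224 to 232 CPM in shGFP, and here too only hairpin 1 stood far off (log2 difference -0.92, SE 0.03, edgeR adjusted p = 1.46e-27). SEC11A, a catalytic subunit of the signal peptidase of the endoplasmic reticulum (ER) (chr15:84669538-84716716), was at 62.4, 62.5 and 63.4 CPM, 122, 113 and 115 CPM and 112 to 118 CPM in the same order (log2 difference -0.89, SE 0.04, edgeR adjusted p = 7.13e-25). CEP97, a centrosomal protein that restrains cilium formation, was at 25.2 to 27.9 CPM with hairpin 1, 43.7 to 52.1 CPM with hairpin 2 and 46.9 to 48.4 CPM in shGFP. WASF3, a regulator of actin branching, was at 17.5 to 18.6, 32.1 to 34.7 and 32.8 to 35.3 CPM. Of the 15 genes lowest with hairpin 1 by this rule, the shGFP range overlapped that of hairpin 2 in 8 and that of hairpin 1 in 0. The 15 include the 4 near-identical FAM72 copies, which are uncertain as separate genes, and some of these copies are among the 8. The hairpin groups were not tested against shGFP here.

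LBR, the lamin B receptor of the inner nuclear membrane, also a sterol reductase, was at 82.1, 90.2 and 81.3 CPM with hairpin 1 and 149, 160 and 170 CPM with hairpin 2 (log2 difference -0.92, SE 0.04, edgeR adjusted p = 1.35e-24). Its shGFP libraries lay between, at 135 to 138 CPM. FAM72A, FAM72B, FAM72C and FAM72D, near-identical copies on chromosome 1 whose reads the counting could split, each had log2 differences from -0.98 to -0.90 and are uncertain as separate genes. 3 abundant genes of smaller difference were SSR1, a subunit of the translocon-associated complex (log2 difference -0.68), the cytokinesis factor ECT2 (-0.63) and the splicing-related factor SCAF11 (-0.61).

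In STARD4, DHRS2, AGR2 and CD24 both hairpins were well below shGFP, and hairpin 1 was the lower. STARD4, a carrier of cholesterol inside the cell, was at 2.28, 4.04 and 3.20 CPM with hairpin 1, 8.36, 8.35 and 9.66 CPM with hairpin 2 and 12.9 to 14.5 CPM in shGFP (log2 difference -1.45, SE 0.14, edgeR adjusted p = 7.57e-12). DHRS2, a short-chain dehydrogenase, was at 23.7, 22.4 and 23.8 CPM, then 56.8, 51.5 and 53 CPM, then 145 to 151 CPM (log2 difference -1.20, SE 0.05, edgeR adjusted p = 1.66e-23). AGR2, a disulfide isomerase of secretory epithelia, was at 4.70, 4.75 and 4.13 CPM, then 9.70, 8.75 and 9.66 CPM, then 49.8 to 51.2 CPM (log2 difference -1.05, SE 0.12, edgeR adjusted p = 5.18e-10). For CD24, a surface glycoprotein of luminal cells, the corresponding levels were 7.81 to 7.96, 13.3 to 15.4 and 23.8 to 25.5 CPM (log2 difference -0.86). The 3 groups were separate for each of these 4 genes.

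The genes farthest above 0 were led by STMN3, a stathmin that binds tubulin and is known from neurons (chr20:63639705-63657682, minus strand). STMN3 was at 104, 105 and 105 CPM with hairpin 1, 45.1, 41.7 and 39.9 CPM with hairpin 2 and 15.7, 19.1 and 16.9 CPM in shGFP, a log2 difference of 1.31 (SE 0.04, edgeR adjusted p = 9.56e-30). CYP4F22, a fatty acid hydroxylase needed for skin ceramides (chr19:15508493-15552317), was at 18.4, 19.2 and 19.5 CPM, then 9.11, 8.19 and 8.38 CPM, then 2.05 to 2.26 CPM (1.15, SE 0.08, edgeR adjusted p = 1.02e-15). CYP1A2, a target of the aryl hydrocarbon receptor, was at 22.0, 19.5 and 19.9 CPM, then 10.1, 9.24 and 9.37 CPM, then 2.63 to 4.05 CPM (1.10, SE 0.08, edgeR adjusted p = 2.47e-15). In these genes shGFP was the lowest group and hairpin 1 the highest, with no overlap. AK5, an adenylate kinase, was ordered likewise at 18.4 to 22.3, 10.8 to 11.2 and 7.19 to 7.42 CPM (0.91). SLC4A4, a sodium bicarbonate cotransporter, was at 5.99 to 7.47, 3.33 to 4.43 and 0.972 to 1.41 CPM (0.77).

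In a further set the hairpin 1 libraries lay above shGFP and the hairpin 2 libraries below it. TP53INP1, a stress protein induced by p53, was at 84.3, 80.5 and 80.5 CPM with hairpin 1, 46.8, 44.8 and 43.9 CPM with hairpin 2 and 53.7 to 55.8 CPM in shGFP (0.85, SE 0.04, edgeR adjusted p = 3.46e-22). BTG2, an antiproliferative p53 target, was at 123, 123 and 118 CPM, then 68.9, 71.8 and 69.3 CPM, with shGFP between at 85.0 to 90.1 CPM (0.79, SE 0.04, edgeR adjusted p = 1.43e-23). BIK, which encodes a death-promoting protein with a BH3 domain, was at 12.8 to 12.9, 7.14 to 7.58 and 8.42 to 9.18 CPM (0.80). LAMA3, a laminin chain of epithelial basement membranes, was at 10.4 to 11.4, 5.90 to 6.93 and 6.98 to 8.57 CPM (0.78). Of the other genes of this group, EDN2 had a log2 difference of 0.88, EVX1 of 0.91, YPEL2 of 0.78, BSN of 0.77 and CELF3 of 0.76.

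**Figure D2:**
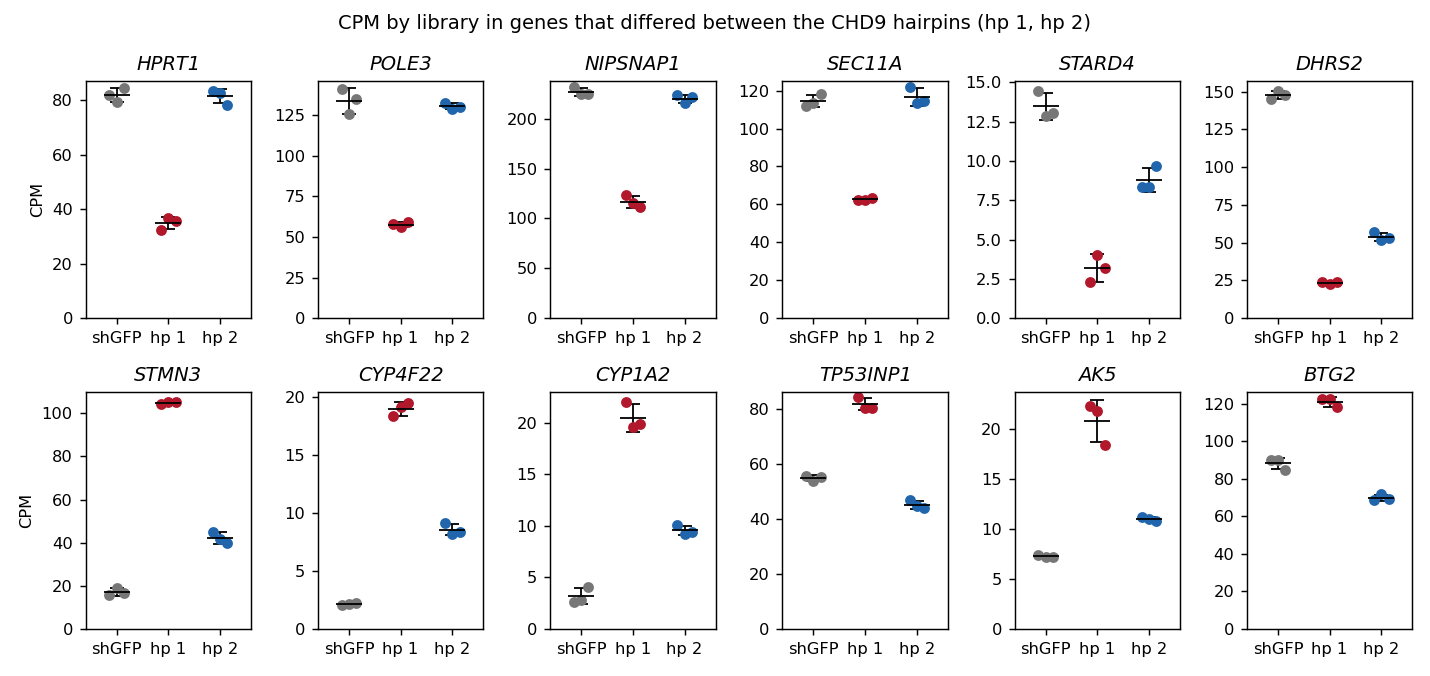
Points are the CPM of single libraries for 12 of the leading genes, grouped as shGFP, hairpin 1 (hp 1) and hairpin 2 (hp 2), with the mean and SD of each group (n = 3) and axes that start at 0. For HPRT1, POLE3, NIPSNAP1 and SEC11A only hairpin 1 is far from shGFP, while for STARD4, DHRS2, STMN3, CYP4F22, CYP1A2 and AK5 both hairpins lie on the same side of shGFP.

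Among abundant genes over 1.5-fold higher with hairpin 1, STK40, a pseudokinase that serves as a ubiquitin ligase adaptor, was at 533, 522 and 535 CPM, with 350, 347 and 352 CPM for hairpin 2 and 244 to 253 CPM in shGFP (log2 difference 0.60, SE 0.02, edgeR adjusted p = 6.01e-25). IGFBP2, a binding protein of insulin-like growth factors, was at 347 to 354 CPM against 220 to 235 CPM, with 173 to 181 CPM in shGFP (0.61). ARRDC4, an arrestin-domain protein controlled by glucose, was at 295 to 296 CPM with hairpin 1, while hairpin 2 (186 to 195 CPM) and shGFP (195 to 198 CPM) lay close together (0.64). ADIRF, an adipogenesis factor, was at 226 to 228 CPM against 138 to 154 CPM, with shGFP at 167 to 175 CPM (0.62). COLCA1 was at 289 to 292 CPM against 177 to 186 CPM (0.68). It overlaps COLCA2 on the other strand, and the strand setting of the counting is not known, so its reads cannot be assigned with certainty. Each gene chosen by rank or by abundance was also called in the same direction after the GC content and length correction.

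Gene groups were read by the number of their tested members called in each direction, against 15.9% of all genes higher with hairpin 1 and 13.9% higher with hairpin 2, and by the median log2 difference, which was -0.00265 over all genes. Of the 40 gene lists, 17 had at least 50% of their tested members called. The lists were chosen with earlier results known, and the share called rose with abundance, reaching 57.7% at 100 CPM or more.

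Cytosolic ribosomal protein genes were higher with hairpin 1. All 38 cytosolic ribosomal protein genes tested in the list were called higher with hairpin 1, with log2 differences from 0.14 to 0.38 and a median of 0.22. RPLP0, a protein of the ribosomal stalk, was at 3760, 3707 and 3746 CPM with hairpin 1, 3113, 3058 and 3063 CPM with hairpin 2 and 3070 to 3126 CPM in shGFP, so hairpin 1 stood above the rest (log2 difference 0.28, SE 0.02, edgeR adjusted p = 2.19e-16). RPLP1, also of the stalk, was at 1468 to 1494, 1129 to 1243 and 1245 to 1260 CPM (0.34). Over all 80 tested genes with a cytosolic ribosomal protein symbol, 70 were higher with hairpin 1 and 2 higher with hairpin 2, RPL26 (-0.34) and RPL39L (-0.23). The call of RPL26 was lost with GC content and length corrected for (-0.29) and without hairpin 1 replicate 1 or 3 or hairpin 2 replicate 1 (-0.31 to -0.19). Some of these genes share reads with processed pseudogenes. The elongation factors EEF1A1 (mean 9378 CPM against 7621 CPM, 0.30) and EEF2 (3999 against 3174 CPM, 0.33) were higher with hairpin 1, and of 21 tested host genes of small nucleolar RNAs, many of which carry a terminal oligopyrimidine tract as ribosomal protein genes do, 8 were higher with hairpin 1, GAS5 (0.28) among them, and 3 higher with hairpin 2. Of the 72 mitochondrial ribosomal protein genes, 7 were higher with hairpin 1 and 12 higher with hairpin 2, with a median of -0.01. These counts were 12 and 10 after the correction, 4 and 6 without hairpin 1 replicate 1, and 4 and 8 without hairpin 2 replicate 2. After correction for GC content and length the 38 were still called higher with hairpin 1, with a median of 0.23.

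Genes of cell division were lower with hairpin 1. Of 39 mitosis genes tested, 35 were called higher with hairpin 2 and 0 higher with hairpin 1, and all 39 had log2 differences below 0, with a median of -0.22. ECT2, the exchange factor that starts the cleavage furrow, was at 76.6, 75.7 and 79.5 CPM with hairpin 1, 112, 123 and 125 CPM with hairpin 2 and 125 to 133 CPM in shGFP (log2 difference -0.63, SE 0.04, edgeR adjusted p = 6.12e-19). TOP2A, the topoisomerase that untangles chromosomes, was at 145, 150 and 149 CPM, then 198, 211 and 205 CPM, with shGFP at 193 to 203 CPM (-0.47, SE 0.03, edgeR adjusted p = 1.17e-17). For these genes hairpin 1 was the low group, and the hairpin 2 libraries reached or came close to shGFP. CENPF, a kinetochore protein, was at 185 to 195, 251 to 265 and 231 to 246 CPM (-0.45). The 4 not called were PRC1, CENPA, KIF20A and BIRC5 (-0.11 to -0.04).

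Genes of chromosome structure, movement and copying also had more calls higher with hairpin 2. Condensin and cohesin genes gave 18 of 21 called higher with hairpin 2 and 0 higher with hairpin 1 (median -0.18), with SMC2 (-0.39) and SMC4 (-0.38) of condensin and STAG2 (-0.34) of cohesin among them. After the GC content and length correction 12 of the 21 were called higher with hairpin 2, with SMC2 at -0.26, SMC4 at -0.24 and STAG2 at -0.19. Of 36 genes with a kinesin symbol, the binding protein genes KIFBP and KIFAP3 included, 17 were higher with hairpin 2, including the mitotic motors KIF14, KIF18A and KIF11, and 4 were higher with hairpin 1, KIF1C, KIF3C, KIF13A and KIFC2 (0.35, and 0.24 after the correction). The call of KIF1C (0.07) was lost after the correction and without hairpin 1 replicate 1 or 3 or hairpin 2 replicate 2 or 3 (0.06 to 0.08). DNA replication genes gave 24 of 36 higher with hairpin 2 and 0 higher with hairpin 1, with a smaller median of -0.10. Leaving out a library gave 16 to 22 calls higher with hairpin 2, the fewest without hairpin 1 replicate 2, and 0 or 1 higher with hairpin 1. CCNE2, a cyclin of entry into S phase, was at 26.5, 28.8 and 28.3 CPM with hairpin 1 and 35, 37.5 and 36.3 CPM with hairpin 2, both below the 43.2 to 48.0 CPM of shGFP (-0.38, SE 0.06, edgeR adjusted p = 5.22e-07, and -0.25 after the correction). RFC3, a subunit of the clamp loader, was at 49.3 to 55.9, 65.6 to 67.9 and 70.9 to 73.8 CPM (-0.32). Counts after the GC content and length correction were 32 of 39 for mitosis and 27 of 36 for replication, with 0 in the other direction in either list. Of 12 genes in the list of CDK inhibitors, D-type cyclins and their partners, 3 were higher with hairpin 1, 1 was higher with hairpin 2 and 8 were not called. CDKN1B, which encodes the inhibitor p27, was higher with hairpin 1 (267 to 280 CPM against 237 to 248 CPM, 0.20), as were the cyclin CCND1 (0.06) and the kinase CDK4 (0.08), and the kinase CDK6 was higher with hairpin 2 (18.7 to 20.5 CPM against 23.8 to 27.9 CPM, -0.44). The calls of CCND1 (0.04) and CDK4 (0.06) were lost after the correction. They were also lost without hairpin 1 replicate 1 (0.06 and 0.07), that of CCND1 without hairpin 1 replicate 2 or hairpin 2 replicate 2 (0.05 and 0.06) and that of CDK4 without hairpin 2 replicate 3 (0.06).

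Mitosis genes are known for a cell cycle homology region (CHR) near their start sites, bound by the DREAM and MuvB complexes. The RefSeq promoter table (GRCh38.p14) held 32 promoters of the 39 genes, each from 250 bases before to 50 after the start. The letters TTTGAA were found on either strand in 23 of the 32 (71.9%) and in 15.4% of all 27305 promoters. Among the 11356 promoters of tested genes the share was 9.32%. The 23 include CENPA (-0.10) and PRC1 (-0.11), which were not called. This motif was searched after the values were seen. Stretches from the promoters of 3 called genes, with log2 differences of -0.63 for ECT2, -0.55 for KIF18A and -0.30 for CDK1 (-0.18 after the correction), are shown to let the match be seen in place, in the direction of the gene, with the motif in capitals. The ECT2 stretch is chr3:172750596-172750631 on the plus strand, that of KIF18A is chr11:28108157-28108181 on the minus strand, and that of CDK1, the mitotic kinase, is chr10:60778155-60778190 on the plus strand. Relative to the start, the letters lay at -115 to -110 in ECT2, -10 to -5 in KIF18A and -161 to -156 in CDK1. ECT2 also held a match past the start, at 34 to 39. The search took the letters anywhere in the promoter, so a match need not be the known element.
ECT2: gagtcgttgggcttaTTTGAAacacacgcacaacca
KIF18A: ggaaagtggcttgggTTTGAAtatt
CDK1: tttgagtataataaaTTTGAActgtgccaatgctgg
The match describes these letters only and was not set against the size of the differences.

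ER chaperones and folding factors were lower with hairpin 1 as well. Of 25 tested, 17 were called higher with hairpin 2 and 1, P4HB (0.11), higher with hairpin 1. The median was -0.19. HSP90B1, the HSP90 of the ER, was at 1206, 1213 and 1226 CPM with hairpin 1, 1794, 1778 and 1799 CPM with hairpin 2 and 2224 to 2346 CPM in shGFP (log2 difference -0.56, SE 0.02, edgeR adjusted p = 2.15e-26). HSPA5, which encodes the chaperone BiP, was at 700, 705 and 728 CPM, then 977, 957 and 942 CPM, then 1256 to 1282 CPM (-0.43, SE 0.02, edgeR adjusted p = 1.85e-20). PDIA4, a disulfide isomerase, was at 538 to 549, 745 to 769 and 982 to 988 CPM (-0.48). In these genes the 3 groups were apart and in the same order, hairpin 1 lowest and shGFP highest. Not called were the stress sensors ERN1 (-0.06) and ATF6 (0.08), the lectin chaperone CANX (-0.04) and 4 others, DNAJB9, EDEM1, SYVN1 and ERO1B, while the sensor EIF2AK3 was called (-0.32). The correction for GC content and length gave counts of 17 and 1, with P4HB no longer called (0.04).

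Promoters of this pathway are known for the ER stress element, bound by ATF6 with NF-Y. Its letters are CCAAT and CCACG with 9 bases of any kind between them. They were found on either strand in 7 of 24 list promoters in the RefSeq table (29.2%), against 22 of all 27305 promoters (0.0806%). Among the 11356 promoters of tested genes 14 held them (0.123%). 5 of the 7 belong to genes called higher with hairpin 2, namely HSPA5, HSP90B1, which holds 2 copies and is shown by the one farther from the start, CALR, XBP1 and CRELD2, and the other two, CANX and ERO1B, were not called. The windows below are shown because they place the element in genes that differed and in a gene that did not. They run in the direction of the gene, with the element in capitals, which begins with CCAAT where it lies on the gene's strand and with CGTGG where it lies on the other. They are chr9:125241376-125241424 (minus strand, HSPA5), chr12:103930201-103930249 (plus, HSP90B1), chr22:28800588-28800636 (minus, XBP1), chr22:49918539-49918587 (plus, CRELD2) and chr5:179698763-179698811 (plus, CANX) on GRCh38.p14.
HSPA5: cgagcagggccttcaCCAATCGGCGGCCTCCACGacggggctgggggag
HSP90B1: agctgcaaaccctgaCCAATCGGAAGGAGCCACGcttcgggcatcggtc
XBP1: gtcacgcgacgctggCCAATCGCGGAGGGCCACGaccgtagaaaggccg
CRELD2: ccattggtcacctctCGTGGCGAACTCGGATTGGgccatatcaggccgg
CANX: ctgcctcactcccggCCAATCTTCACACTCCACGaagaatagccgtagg
The element thus stood in promoters with log2 differences of -0.56 for HSP90B1, -0.43 for HSPA5, -0.26 for CRELD2, -0.15 for XBP1 (-0.08 after the correction) and -0.04 for CANX.

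Targets of ATF4, the factor induced by amino acid shortage, gave 16 of 27 higher with hairpin 2 and 3 higher with hairpin 1 (median -0.14). ALDH1L2, a folate enzyme of mitochondria, was at 42.9, 39.4 and 39.2 CPM with hairpin 1 and 69.1, 67.9 and 68.5 CPM with hairpin 2, with shGFP between at 48.2 to 53.8 CPM (log2 difference -0.76, SE 0.04, edgeR adjusted p = 3.58e-19). SLC7A11, the cystine transporter, was at 21.5, 23.4 and 21 CPM against 33.8, 37.4 and 39.0 CPM, with shGFP at 24.0 to 26.2 CPM (-0.74, SE 0.06, edgeR adjusted p = 9.34e-14). In both genes hairpin 2 lay above shGFP and hairpin 1 below it. PSAT1 of serine synthesis was at 130 to 133 CPM with hairpin 1 and 156 to 164 CPM with hairpin 2, the latter overlapping the 154 to 164 CPM of shGFP (-0.29). The 3 higher with hairpin 1 were SLC7A5 (0.11), DDIT4 (0.23) and VLDLR (0.61). The call of SLC7A5 was lost with GC content and length corrected for (0.02), and that of DDIT4 without hairpin 1 replicate 1 (0.17). Aminoacyl-tRNA synthetases, several of which are ATF4 targets, gave 13 of 31 higher with hairpin 2 and 0 higher with hairpin 1. With GC content and length corrected for, these synthetase counts were 15 and 2. The calls of AARS2, CARS1 and GARS1 were each lost when certain single libraries were left out, as without hairpin 1 replicate 2 for CARS1 (-0.32) and GARS1 (-0.06). Called members included TARS1 (-0.29), IARS1 (-0.28) and AARS1 (-0.26).

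**Figure D3:**
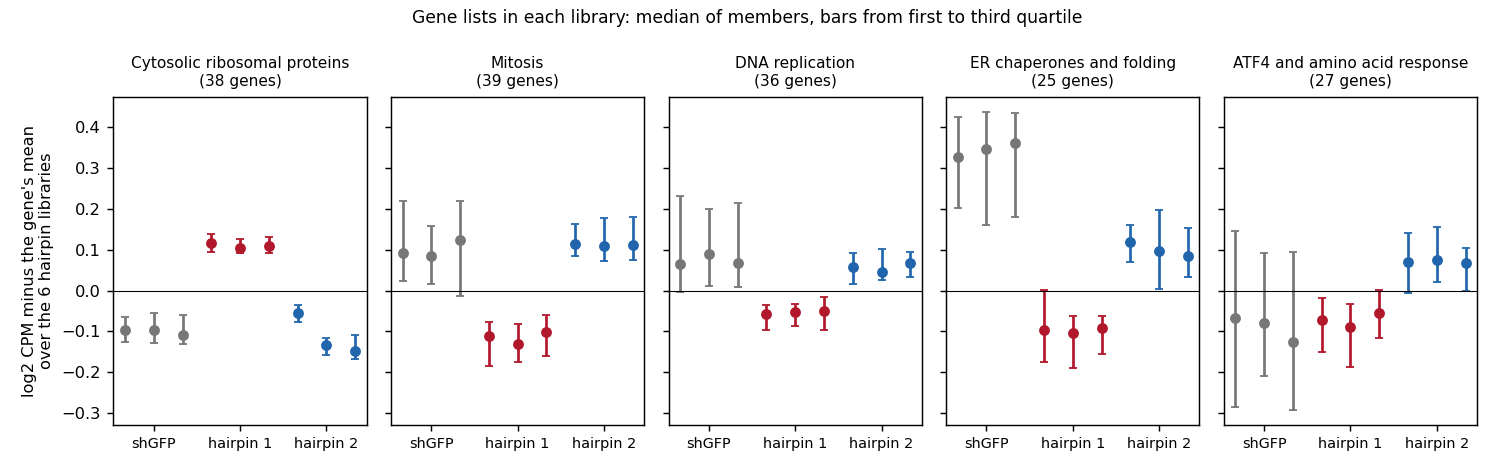
For 5 gene lists, each point is the median over the tested members of log2 CPM minus the gene's mean over the 6 hairpin libraries, in 1 library, and the bars run from the first to the third quartile. The medians of the ribosomal protein list are 0.11 to 0.12 with hairpin 1 and -0.15 to -0.06 with hairpin 2, those of the mitosis list -0.13 to -0.10 and 0.11, and shGFP lies nearer hairpin 2 in both lists.

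Sterol and lipid genes differed in part. Of 25 cholesterol synthesis and uptake genes, 10 were higher with hairpin 2 and 1 higher with hairpin 1 (median -0.10). HMGCS1, the synthase that feeds the mevalonate pathway, was at 122, 133 and 123 CPM with hairpin 1 and 148, 148 and 153 CPM with hairpin 2, both below the 214 to 226 CPM of shGFP (log2 difference -0.24, SE 0.03, edgeR adjusted p = 4.73e-08, and -0.15 after the correction). DHCR7 (-0.21), a reductase late in cholesterol synthesis, was called, while SQLE (-0.10), INSIG1 (-0.08) and IDI1 (0.00) were not. TM7SF2, a sterol reductase with the same activity as LBR, was the member higher with hairpin 1, at 171 to 184 CPM against 129 to 138 CPM (0.43), so that the 2 reductases differed in opposite directions. Fatty acid genes gave 5 calls each way among 16, with FADS1 (-0.21) and ACSL3 (-0.23, and -0.10 after the correction) lower and ELOVL5 (0.25) higher with hairpin 1. Without hairpin 2 replicate 3 the calls higher with hairpin 2 were 3.

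Among p53 targets, 12 of 25 were higher with hairpin 1 and 2, GDF15 (-0.20) and DDB2 (-0.17), higher with hairpin 2, with a median of 0.17. Leaving out a library gave 9 to 11 calls higher with hairpin 1 and 1 to 3 higher with hairpin 2. The call of DDB2 was lost without hairpin 1 replicate 2 or 3 or hairpin 2 replicate 1 (-0.16 to -0.12). Besides TP53INP1 and BTG2 they included BBC3, which encodes PUMA, at 109 to 114 CPM against 86.8 to 93.0 CPM (0.30, and 0.20 after the correction), CDKN1A, which encodes the inhibitor p21 (189 against 155 CPM on average, 0.28), and PLK2 (0.53). The levels were not in 1 relation to shGFP. The shGFP mean of CDKN1A was 310 CPM, above both hairpins, whereas that of BBC3 was 76.7 CPM, below both, and MDM2, the regulator of p53, was not called (0.02). After the GC content and length correction 13 were higher with hairpin 1 and 5 higher with hairpin 2.

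Androgen response genes gave 10 of 22 higher with hairpin 1 and 4 higher with hairpin 2 (median 0.04). NDRG1, a differentiation and hypoxia gene, was at 90.0, 87.1 and 90.3 CPM with hairpin 1, 56.9, 51.7 and 57.1 CPM with hairpin 2 and 28.5 to 31.3 CPM in shGFP (log2 difference 0.70, SE 0.04, edgeR adjusted p = 3.12e-19). TMPRSS2, the protease gene often fused to ETS factors in prostate cancer, was at 16.7 to 19 CPM against 12.3 to 12.6 CPM, the latter inside the 10.2 to 12.7 CPM of shGFP (0.51). Others went the opposite way or did not pass, as KLK2 (-0.14) and KLK4 (-0.08) were higher with hairpin 2, and the prostate antigen gene KLK3 (0.01) was not called. KLK4 was not called without hairpin 1 replicate 1 or 2 or hairpin 2 replicate 1 (-0.08 to -0.05). GATA2, a transcription factor of luminal prostate cells, was at 405, 394 and 399 CPM, then 274, 275 and 269 CPM, then 162 to 169 CPM (0.55, SE 0.03, edgeR adjusted p = 7.93e-23). GRHL2 was at 185 to 193 CPM against 138 to 147 CPM (0.40). Luminal keratins KRT8 (0.20, and 0.13 after the correction), KRT18 (0.18) and KRT19 (0.39) were higher with hairpin 1, and FOLH1, which encodes PSMA, was higher with hairpin 2 (304 to 310 CPM against 365 to 370 CPM, -0.26). Of 8 neuroendocrine genes tested, the vesicle protein SYP was higher with hairpin 1, at 4.24 to 5.10 CPM against 2.06 to 2.78 CPM (0.90), SCG2 was higher with hairpin 2 (-0.53), and the other 6 were not called. The call of SCG2 was lost without hairpin 1 replicate 2 (-0.38) or hairpin 2 replicate 1 (-0.43). Whether the level of SYP bears on the androgen response genes was not tested.

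**Figure D4:**
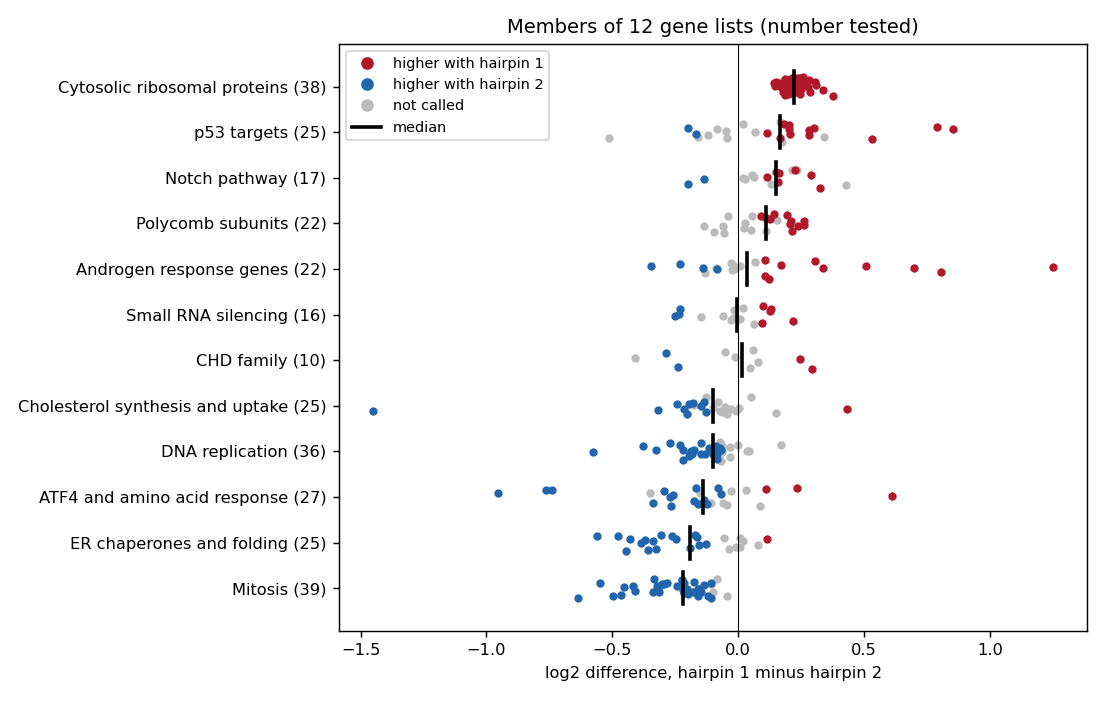
Each point is a tested member of a gene list at its log2 difference, hairpin 1 minus hairpin 2, coloured by call, and the black bar is the median of the list. The ribosomal protein members lie to the right of 0 and the mitosis members to the left, whereas the CHD family and the small RNA silencing genes are spread on either side of 0.

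Chromatin regulators differed by little. Polycomb subunits gave 11 of 22 higher with hairpin 1 and 0 higher with hairpin 2 (median 0.11), from CBX2 (100 to 102 CPM against 83.7 to 90.4 CPM, 0.24, and 0.15 after the correction) and PCGF3 (0.26) to CBX8 (0.09), while the catalytic subunit EZH2 (-0.06) was not called. SWI/SNF subunits gave 10 of 23 higher with hairpin 1 and 3 higher with hairpin 2, with BICRA (0.38, and 0.25 after the correction) and SMARCD2 (0.21) leading and BRD9 (-0.13, and -0.19 after the correction), ACTL6A (-0.09) and PBRM1 (-0.09) the 3. The calls of ACTL6A (-0.03), PBRM1 (0.01) and CBX8 (0.03) were lost with GC content and length corrected for. CBX8 was also not called without hairpin 1 replicate 1 (0.08) or hairpin 2 replicate 3 (0.07), BRD9 without hairpin 1 replicate 1 (-0.10) or hairpin 2 replicate 3 (-0.11), PBRM1 without any hairpin 1 library or hairpin 2 replicate 2 (-0.09 to -0.06), and ACTL6A without any library except hairpin 2 replicate 3 (-0.10 to -0.07). HOX genes gave 4 calls among 26, of which HOXA13 was at 12.5 to 13.9 CPM against 7.64 to 9.04 CPM (0.69).

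Signalling lists were mixed. In the Notch pathway 7 of 17 were higher with hairpin 1, including the receptors NOTCH1 (0.29) and NOTCH3 (0.33) and the target HES1 (0.16), and the sheddases ADAM17 (-0.20) and ADAM10 (-0.14) were higher with hairpin 2. After the GC content and length correction the Notch counts were 5 and 0, with NOTCH1 at 0.16, NOTCH3 at 0.21, ADAM17 at -0.08 and ADAM10 at -0.02. HES1 was not called without hairpin 1 replicate 3 or hairpin 2 replicate 2 (0.13 in either). Wnt pathway genes gave 6 of 18 higher with hairpin 1 and 2 higher with hairpin 2, and 10 were not called. Their median was 0.04, with 9 above 0 and 9 below. After the correction the Wnt counts were 5 and 3, with a median of 0.01. The targets AXIN2 (0.68), LEF1 (0.70) and RNF43 (0.43) were higher with hairpin 1. DKK1, a secreted inhibitor, was lower, at 15 to 16 CPM against 23.7 to 24.2 CPM with shGFP at 50.0 to 52.8 CPM (-0.62). The TGF-beta and BMP pathway gave 8 of 21 higher with hairpin 1 and 5 higher with hairpin 2, and 6 and 5 after the correction. Its member INHBA, a subunit of activin, had the lowest difference of all called genes at -2.04. The levels of INHBA averaged 0.193 CPM with hairpin 1 and 0.841 CPM with hairpin 2. The receptors TGFBR1 (-0.49), BMPR1A (-0.24, and -0.15 after the correction) and BMPR1B (-0.49) were higher with hairpin 2, and the inhibitory SMAD7 (0.30) and SMAD6 (0.20, and 0.11 with the call lost after the correction) were higher with hairpin 1. Immediate early and ERK feedback genes gave 3 of 27 higher with hairpin 1 and 7 higher with hairpin 2, and 3 and 9 after the correction. EGR1, a transcription factor, was at 46.0 to 48.0 CPM with hairpin 1 and 62.5 to 64.4 CPM with hairpin 2 (-0.43). Its shGFP libraries were at 73.3 to 77.7 CPM. JUN went the other way at 54.2 to 55.7, 43.3 to 45.2 and, in shGFP, 45.8 to 48.9 CPM (0.30). The matrix gene FN1 was at 229 to 235 CPM with hairpin 1 and 331 to 341 CPM with hairpin 2, and the hairpin 1 libraries overlapped the 229 to 238 CPM of shGFP (-0.54, SE 0.03, edgeR adjusted p = 6.89e-22).

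The pathways that process or sense hairpin RNA showed no single direction. Small RNA silencing genes gave 5 of 16 higher with hairpin 1 and 3 higher with hairpin 2, and 3 each way without hairpin 1 replicate 2. The Argonaute genes themselves split, with AGO1 higher with hairpin 1 (304 to 309 CPM against 261 to 267 CPM, 0.22), as was AGO2 (0.13), and AGO3 (-0.24, and -0.13 after the correction) and AGO4 (-0.25) higher with hairpin 2. DICER1 (0.01), DROSHA (-0.03) and XPO5 (0.06) were not called. Sensors of double-stranded RNA gave 2 calls each way among 12, with RIGI (0.59) and MAVS (0.20, and 0.13 after the correction) higher with hairpin 1 and DHX58 (-0.37) and EIF2AK2 (-0.10) higher with hairpin 2. The call of RIGI was lost without hairpin 1 replicate 3 (0.43), that of DHX58 without hairpin 1 replicate 3 (-0.23) or hairpin 2 replicate 2 (-0.29), and that of EIF2AK2 after the correction (0.01) and without any library except hairpin 1 replicate 2 (-0.11 to -0.09). Interferon response genes gave 2 higher with hairpin 1 and 3 higher with hairpin 2 among 20. Writers, erasers and readers of RNA m6A, the mark the series is about, gave 4 higher with hairpin 1 and 6 higher with hairpin 2 among 20, METTL3 itself at -0.12 and the eraser ALKBH5 at 0.17. After the GC content and length correction these counts were 4 and 2, and METTL3 was not called (-0.06), nor was it without hairpin 1 replicate 2 or 3 or hairpin 2 replicate 1 or 3 (-0.11 to -0.10). Without hairpin 1 replicate 2 or hairpin 2 replicate 2 or 3 the calls higher with hairpin 2 were 3.

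The calls were tied to base composition. The median GC content, taken over the longest transcript, was 54.9% for genes called higher with hairpin 1, 42.2% for genes called higher with hairpin 2 and 48.8% for all tested. In the fifth of genes with the lowest GC content 4.85% were higher with hairpin 1 and 30% higher with hairpin 2, and in the fifth with the highest GC content 28.2% and 5.56%. The median log2 difference ran from -0.11 to 0.08 over the quintiles. With each library corrected for its trend with GC content and length, the test called 4400 genes, 2474 higher with hairpin 1 and 1926 higher with hairpin 2, and the shares over the quintiles were 14.3% to 15.8% and 10.1% to 12.8%. Of the 4935 calls without correction 3399 were also called with it, 3398 in the same direction and 1 in the opposite. The source of the trend was not tested. The lists named above for ribosomal proteins, mitosis, replication and ER folding had median GC contents of 49.4%, 43.2%, 48.8% and 45.2%.

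**Figure D5:**
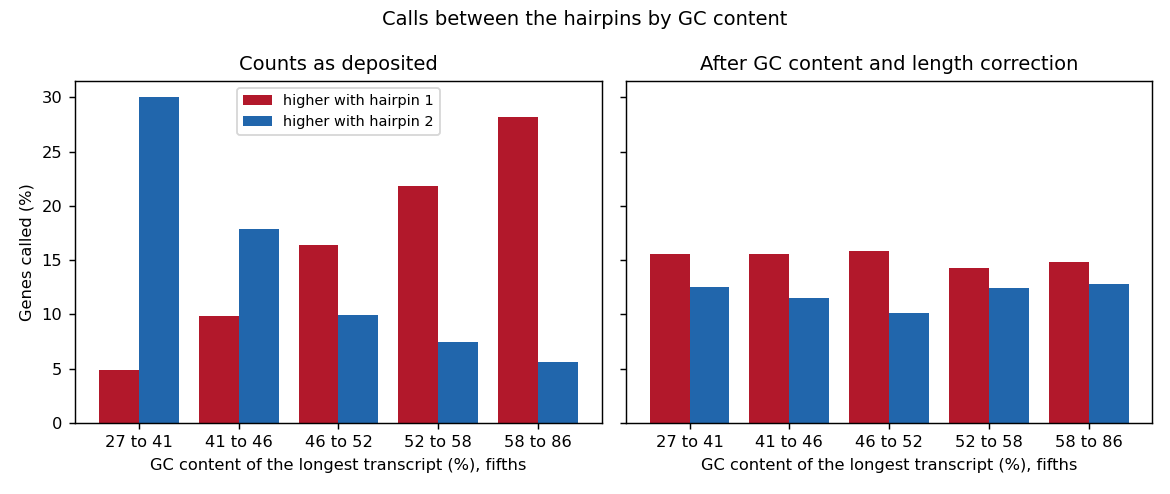
Bars give the percent of genes called higher with hairpin 1 (red) or hairpin 2 (blue) in quintiles of genes by GC content of the longest transcript, for counts as deposited (left) and after correction for GC content and exonic length (right). On the left the red bars rise from 4.85% to 28.2% and the blue bars fall from 30% to 5.56%; on the right both are nearly level.

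Calls also followed abundance, from 4.36% of genes under 1 CPM to 57.7% of genes at 100 CPM or more. A member of low level thus had less chance of being called. At 100 CPM or more, 38.7% were higher with hairpin 1 and 19% higher with hairpin 2. Among protein-coding genes 35.4% were called, among long intergenic RNAs 10.9% and among antisense RNAs 8.09%. Over chromosomes 1 to 22 and X the percent called lay between 21.6% for chromosome 21 and 33% for chromosome 3.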

How the data were processed

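RNA of 22Rv1 cells was sequenced in 9 libraries, 3 per group, grouped by their titles. The labels' protocols name a directional kit and polyadenylated RNA. Trim Galore, STAR, DESeq2 and hg38 are listed in the submitters' processing notes. Not given in the sources used here are versions, read counter, annotation release and strand setting. The values the authors deposited are counts, whole reads per gene without normalisation. No row lacked a gene identifier, and 60704 of 67071 identifiers had a symbol. Coordinates are of GENCODE 29 on GRCh38.

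Genes were kept by filterByExpr (minimum count 10) in the 6 hairpin libraries. TMM factors were computed over all 9 libraries, and CPM use the scaled totals. Hairpin 1 was compared with hairpin 2 in edgeR 4.0.16 (R 4.3.3) by the quasi-likelihood test with Benjamini-Hochberg adjustment over 16532 genes, calls being under 0.05. The procedure was tested on simulated data. The correction for GC content and exonic length subtracted a loess surface (span 0.3) from each library, with values for 97.9% of genes. Alternatives included DESeq2 1.42.0, voom in limma 3.58.1, other filters and thresholds, a replicate block and leaving out each library.

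Members and gene lists were chosen with earlier results of these data known. Named genes are the CHD genes, the 15 highest and 15 lowest log2 differences among called genes of at least 5 CPM without overlap, the 5 most abundant per direction over 1.5-fold, and the members of smallest p in each list, up to 3. Other members are named where they describe a list, and families defined by symbol were added after the data were seen. A few genes that these rules select are not reported here.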

Additional observations from a re-analysis of the deposited data

How the results depend on the processing

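The count of calls was 4935, and between 3431 and 5103 under every alternative tried except the glmTreat test against a 1.5-fold change, which called 30 genes, 10 higher with hairpin 1 and 20 higher with hairpin 2; that test asks for more than a difference from 0. Leaving out each library gave 3901 to 4780 calls. Every call shared with an alternative had the same direction, apart from 1 gene under the GC content and length correction and with it in the replicate block. CHD9 kept its direction but was not called under glmTreat (-0.29), under the GC content and length correction (-0.17) or under that correction with the replicate block (-0.17, edgeR adjusted p = 0.094), and lay between -0.34 and -0.26 when a library was left out. The number of lists with at least 50% of members called was 17, against 11 with the DESeq2 Wald test, 8 at an adjusted p under 0.01, 0 under glmTreat and 9 to 12 without a library. Among genes not called, values turned direction in CHD3 (-0.039 under the GC content and length correction, with and without the block) and, when a library was left out, CD14 (-0.082 to 0.38), CHD8 (-0.025 to 0.0087) and PDGFRB (-0.15 to 0.46). The cause was not tested. Of the 520 list members called, 96 lost the call under the GC content and length correction and 137 without at least 1 library, and 355 kept it throughout; 16 turned direction under the correction, with 0 called there, EIF2AK2, PBRM1, SMARCA4 and KIF1C among them. Same-numbered libraries deviated together with correlations of -0.013 to 0.041, so the numbers were not taken to pair them; with the replicate block 5103 genes were called. Depth limits calls at low abundance, and the share called rose with CPM over the whole range.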
